A study of Homo sapiens with 6 samples.

Results

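NANOG and POU5F1 encode central transcription factors of the pluripotency network, and both genes have close copies in the human genome. The report covers the 5 gene names NANOG, NANOGP1, NANOGNB, POU5F1 and POU5F1B. They were chosen by name from a count table of 48183 names, and they took up 11 of its 61196 Ensembl identifiers, 7 of which carried the name POU5F1. The libraries were 6 bulk RNA-seq libraries of human embryonic stem cells carrying the EOS reporter, a transgene driven by the distal enhancer of Oct4 with EGFP and puromycin resistance. The labels named the line H1, whereas the study's text named H9. Each library was the only one of its induction route or parental line, except for AICAR.

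The 4 naive libraries were VPA naive (induced with VPA, a histone deacetylase inhibitor), CA-p38 naive (induced by a doxycycline-inducible, constitutively active p38 kinase), and AICAR naive 1 and AICAR naive 2 (induced with AICAR, an activator of AMPK). By the study's day labels, the induction stage ran to day 9 for VPA, day 7 for CA-p38 and day 14 for AICAR. For CA-p38 the study's text gives a shorter time on doxycycline. After this stage 12 passages followed for VPA and CA-p38. For AICAR 14 or 15 passages followed, without a statement of which library had which number. AICAR and doxycycline were given in PXGL medium, and VPA in Ndiff227 with PD0325901 and LIF. The AICAR cells then had a lower AICAR dose for a time before it was removed. After induction the naive cells were grown in PXGL medium, on mouse feeder cells according to the labels, whereas the study's text describes a later move of the CA-p38 cells to feeder-free PXGL. The naive cells were sorted for CD75 and SUSD2. The 2 primed libraries, EOS primed and CA-p38 EOS primed, came from the parental lines in StemFit on Matrigel, unsorted. The EOS primed line was the parent of the VPA and AICAR cells, and the CA-p38 EOS primed line of the CA-p38 cells. State, medium, sort and, where used, feeder therefore changed together and cannot be told apart. The labels do not say that libraries of a group came from separate cultures, so p-values measure the spread between these libraries, which may be technical.

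POU5F1, also called OCT4, binds an octamer sequence through its POU domain, often next to SOX2, and its loss ends pluripotency in embryonic stem cells. NANOG is a homeodomain factor that acts with POU5F1 and SOX2 at many shared enhancers, and its level is known to vary between pluripotent states. NANOGP1 is a tandem duplicate of NANOG annotated as a transcribed pseudogene, NANOGNB is a homeobox gene next to NANOG, and POU5F1B is a retrocopy of POU5F1. Reads that fit a gene and its copy equally well were not separated in these counts beyond the aligner's mapping quality.

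The first stretch of the NANOG coding sequence and the same stretch of its copies are shown because the bases at which they differ are what let a read be placed on one copy. Capitals mark the positions at which the 3 sequences are not all alike. NANOG lies at chr12:7789615-7789734 (+ strand, exon 1 of NANOG-201, from the start codon), NANOGP1 at chr12:7892576-7892695 (+ strand, exon 1) and NANOGP8, a retrocopy, at chr15:35084991-35085110 (- strand, exon 1), all on GRCh38.
NANOG: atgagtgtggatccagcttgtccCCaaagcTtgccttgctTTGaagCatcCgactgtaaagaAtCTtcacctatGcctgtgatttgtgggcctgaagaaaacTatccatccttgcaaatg
NANOGP1: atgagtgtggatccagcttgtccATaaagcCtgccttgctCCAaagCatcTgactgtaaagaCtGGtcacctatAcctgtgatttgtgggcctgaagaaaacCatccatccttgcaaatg
NANOGP8: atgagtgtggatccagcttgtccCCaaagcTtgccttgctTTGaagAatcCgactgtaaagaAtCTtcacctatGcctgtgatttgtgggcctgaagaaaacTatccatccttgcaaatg
NANOGP1 differed from NANOG at 12 of these 120 bases, and NANOGP8 at 1. The window was chosen as the 120 coding bases within 1 exon that differed most from NANOGP1, so other such stretches differ no more. Over its whole annotated transcript of 915 bases, NANOGP1 differed from NANOG at 22 bases and a gap of 3 (97.6% identity), with 13 of the differences in exon 1. Of the stretches of 75 bases in NANOGP1 transcripts, 38.2% also occurred in a NANOG transcript, compared with 56.1% for NANOGP8. NANOGNB shared 0 such stretches with NANOG. Read length is not given in the sources used here, so the 75 bases are an example.

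The NANOG promoter is shown because POU and SOX factors bind letters of this kind. The window holds the 250 bases before the RefSeq gene start, chr12:7789152-7789401 on the + strand of GRCh38.p14, and the capitals mark the 2 matches found.
NANOG promoter: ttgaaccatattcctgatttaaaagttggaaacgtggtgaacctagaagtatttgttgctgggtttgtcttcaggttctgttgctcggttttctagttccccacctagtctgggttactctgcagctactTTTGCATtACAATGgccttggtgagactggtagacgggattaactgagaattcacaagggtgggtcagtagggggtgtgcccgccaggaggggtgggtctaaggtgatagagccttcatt
The POU letters ATGCAAA matched on the - strand 120 bases before the start, and the SOX letters CATTGT matched on the - strand 112 bases before it, 1 base apart and without overlap. Of 35116 RefSeq promoters of this length, searched on both strands, 3.94% held the POU letters, 9.29% held the SOX letters, and 2 held both with this spacing and order (0.0057%). The NANOG promoter itself is 1 of these 2. The spacing and order counted are its own, so their rarity is no test of this promoter. A match is a description of letters and no binding was measured. The promoter of NANOGNB held neither. The table had an entry for 2 of the 5 members, and none for NANOGP1, POU5F1 or POU5F1B.

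The total count per library ran from 46823699 to 54277064, so 3 counts corresponded to 0.0553 to 0.0641 CPM (counts per 1000000 counts of a library). The label of each state was compared with lists of markers. The lists were chosen with earlier results of these data known, so the comparison is no independent check. All 6 naive markers were higher in naive libraries (summed level 3570 to 4280 CPM, against 7.32 to 10.3 CPM in primed libraries), and all 5 primed markers were lower (30.9 to 42.5 CPM against 2370 to 2900 CPM). None of these markers overlapped between the states. Among all names tested, 32.9% did not overlap with naive higher and 32.1% with naive lower. SUSD2, 1 of the 6, was used for the sort, so its level is no check of the label. Of markers for other cells, the 8 fibroblast transcripts summed to 39.1 to 77.9 CPM in naive and 183 to 201 CPM in primed libraries, with 4 lower, 0 higher and 4 not passing the test. Most of the primed sum lay on COL1A2 (123.3 and 110.3 CPM) and COL1A1 (59.92 and 59.65 CPM). The 4 neural transcripts summed to 90.4 to 93.8 CPM against 434 to 514 CPM (2 lower). NES made up most of this sum, at 87.4 to 92.6 CPM in naive and 426.4 and 506.5 CPM in primed libraries. PAX6 and SOX1 stood at 0.485 to 1.68 CPM and overlapped between the states. MAP2 was at 5.92 and 6.05 CPM in primed libraries and at most 0.0805 CPM in naive ones. The 4 trophoblast transcripts summed to 16.1 to 17.8 CPM against 3.86 to 4.97 CPM (2 higher). The 4 endoderm transcripts summed to 11.6 to 17.7 CPM against 7.37 to 30.5 CPM (1 higher, 2 lower), and the 4 mesoderm transcripts to 8.17 to 11 CPM against 3.74 to 13.9 CPM (1 higher, 1 lower). Their part in the results on the members was not tested.

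To ask whether the induced naive cells differed from primed cells in the 2 factors and their copies, counts were summed per gene name and tested over all 26497 names that passed a filter on low counts. All 5 members passed. NANOG, NANOGP1 and NANOGNB were higher in naive libraries, and POU5F1 and POU5F1B did not pass the test. At an adjusted p under 0.05 (edgeR's quasi-likelihood test, Benjamini-Hochberg adjustment), 26% of all tested names were higher and 27% were lower in naive libraries. Groups did not overlap, with naive higher, for 32.9% of all names, and with naive lower for 32.1%. The median log2 fold change was 0.11 over all names. Over the 5 members it was 1.33, the value of NANOG, with single values from -0.12 (POU5F1) to 4.55 (NANOGNB). In bulk libraries, more cells with a transcript and more of it per cell cannot be told apart.

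**Figure D1:**
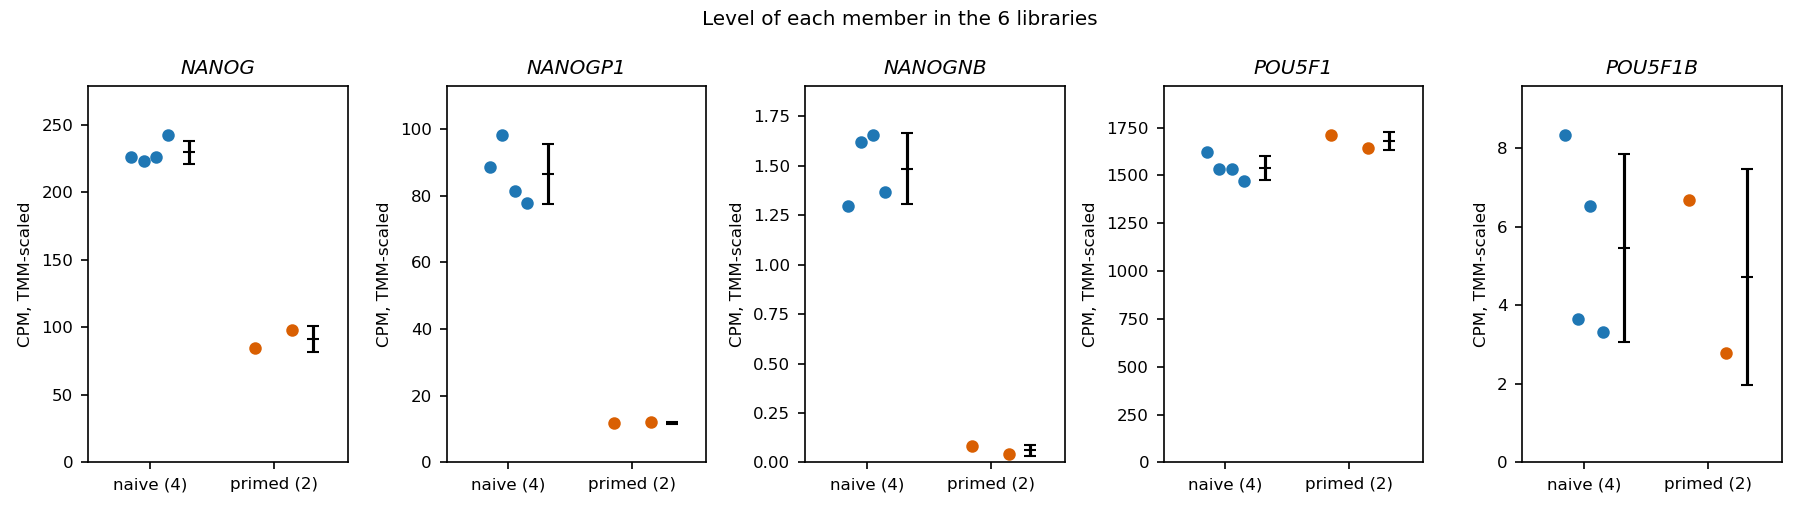
Level of the 5 members in CPM with TMM scaling (y axis, linear, from 0) in the 4 naive (blue) and 2 primed (orange) libraries. Each point is 1 library, and the bars show the mean and SD of a state. NANOG, NANOGP1 and NANOGNB lie higher in all naive than in both primed libraries. With this scaling POU5F1 lies slightly lower in all naive libraries, and POU5F1B overlaps.

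NANOG (ENSG00000111704) lies at chr12:7787794-7799146 on the + strand. Its level was 226 CPM in VPA naive, 223 CPM in CA-p38 naive, 226 CPM in AICAR naive 1 and 242 CPM in AICAR naive 2, and 84.7 CPM in EOS primed and 97.9 CPM in CA-p38 EOS primed. The naive libraries lay close together, and all were above both primed libraries. The mean over the naive libraries was 229 ± 8.70 CPM (SD, n = 4), and that over the primed libraries 91.3 ± 9.34 CPM (SD, n = 2). The log2 fold change was 1.33 (SE 0.11, 95% interval 1.10 to 1.56, adjusted p = 3.1e-07 with edgeR). Against the parental library of each route, NANOG was 2.67-fold higher in VPA naive, 2.27-fold in CA-p38 naive, 2.67-fold in AICAR naive 1 and 2.86-fold in AICAR naive 2. The counting intervals of these folds ran from 2.2 to 2.96 in all, and cover counting error only. The parental lines themselves differed 1.16-fold (1.11 to 1.21), with CA-p38 EOS primed above EOS primed.

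NANOGP1 (ENSG00000176654) lies at chr12:7892576-7898903 on the + strand, between SLC2A14 and SLC2A3, and shares its place with a lncRNA annotated on the same strand. It was at 88.5 CPM in VPA naive, 98.1 CPM in CA-p38 naive, 81.4 CPM in AICAR naive 1 and 77.8 CPM in AICAR naive 2, and at 11.7 and 12 CPM in EOS primed and CA-p38 EOS primed. Every naive library stood far above the primed libraries, which were almost equal. The means were 86.5 ± 8.95 CPM (SD, n = 4) and 11.9 ± 0.199 CPM (SD, n = 2), with a log2 fold change of 2.87 (SE 0.14, 95% interval 2.56 to 3.17, adjusted p = 3.41e-09 with edgeR). Over their own parents, the 4 naive libraries were 7.55-fold (VPA), 8.18-fold (CA-p38), 6.95-fold (AICAR naive 1) and 6.64-fold (AICAR naive 2) higher.

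NANOGNB (ENSG00000205857) lies at chr12:7765216-7774121 on the + strand. It had 68 counts in VPA naive, 82 in CA-p38 naive, 90 in AICAR naive 1 and 68 in AICAR naive 2, against 4 counts in EOS primed and 2 in CA-p38 EOS primed. Naive libraries thus held it at a low level of 1.30 to 1.66 CPM, and primed libraries were near the limit of 3 counts. Summed over each state, the naive level was 24.4-fold the primed level, with a counting interval of 11.1 to 67.0. The fitted log2 fold change was 4.55 (SE 0.55, adjusted p = 1.4e-05 with edgeR) and depends on the prior count at so few primed counts.

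The counts on the copies were set against those on NANOG within each library. NANOGP8, which is the nearer of the 2 copies to NANOG in sequence, had 38.5 counts per 100 NANOG counts in VPA naive, 37.2 in CA-p38 naive, 35.5 in AICAR naive 1 and 34.3 in AICAR naive 2, and 40.0 and 39.0 in EOS primed and CA-p38 EOS primed. The ratio was thus slightly lower in naive libraries, 0.92 of the primed mean. NANOGP1 had 39.1, 44, 36.0 and 32.1 counts per 100 NANOG counts in the same 4 naive libraries, and 13.8 and 12.2 in the primed ones, 2.90 times the primed mean. For NANOGNB the ratio was 0.565 to 0.732 per 100 NANOG counts in naive and 0.0954 and 0.0417 in primed libraries. NANOGP8 itself rose by a log2 fold change of 1.21 (SE 0.11, adjusted p = 1.44e-06 with edgeR), from 33.9 and 38.2 CPM in primed to 80.3 to 87.2 CPM in naive libraries. How many of the counts on NANOGP8 or NANOGP1 came from NANOG transcripts was not tested.

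**Figure D2:**
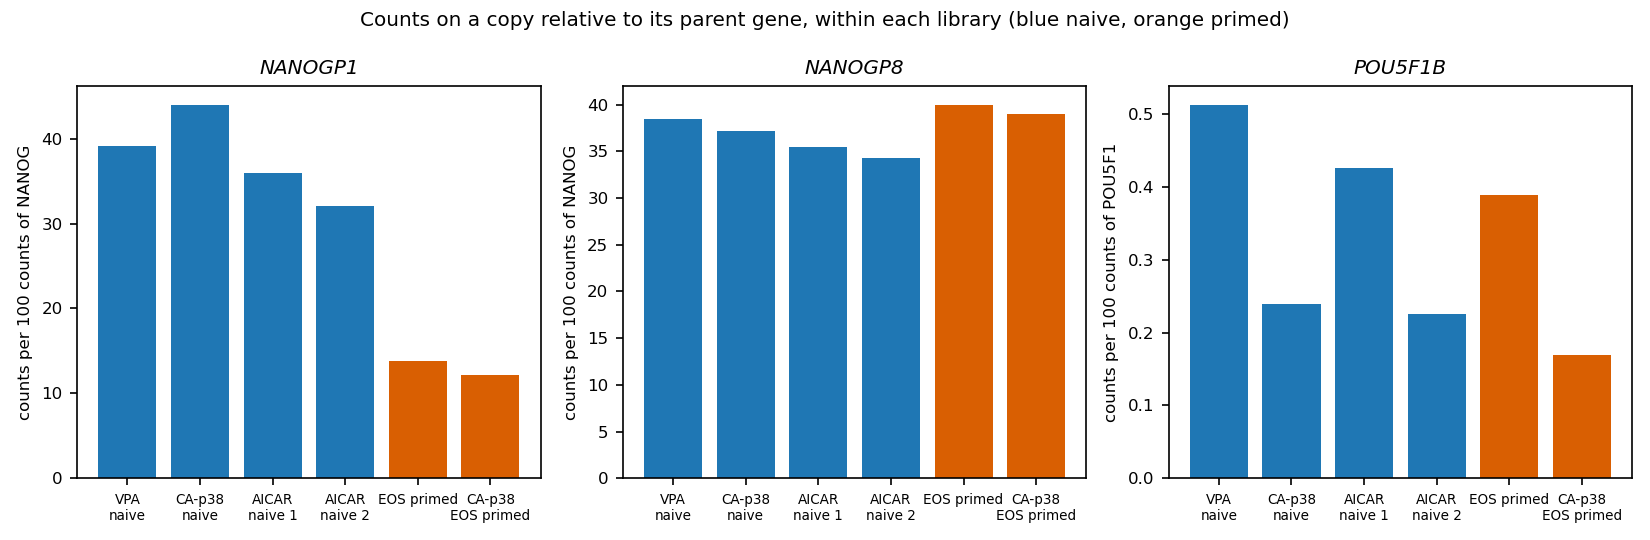
Counts on NANOGP1, NANOGP8 and POU5F1B per 100 counts of the parent gene (y axes, linear, from 0) in each library, with naive libraries in blue and primed libraries in orange. NANOGP1 stands at 32.1 to 44 in naive and 12.2 to 13.8 in primed libraries, NANOGP8 at 34.3 to 40.0 throughout, and POU5F1B at 0.169 to 0.513 with both states spread over the range.

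Ratios within a library do not depend on the scaling between libraries, and 3 of them were compared between states with an exact two-sided permutation test. With 4 against 2 libraries the smallest p this test allows is 0.0667, so none could pass 0.05. NANOGP1 held 28% of the NANOG, NANOGP1 and NANOGNB counts in VPA naive (Wilson 95% interval 27.3 to 28.7%), 30.4% in CA-p38 naive (29.7 to 31.1%), 26.3% in AICAR naive 1 (25.7 to 27%) and 24.2% in AICAR naive 2 (23.6 to 24.9%). It held 12.1% in EOS primed (11.2 to 13.1%) and 10.9% in CA-p38 EOS primed (10.1 to 11.8%). The share was higher in 4 of 4 naive libraries, by 15.7 percentage points on average (exact permutation p = 0.0667, adjusted p = 0.1 over the 3 comparisons). With the other NANOG copies added to the total, the difference was 13.0 percentage points.

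The log2 ratio of NANOG counts to POU5F1 counts was -2.84 in VPA naive, -2.78 in CA-p38 naive, -2.76 in AICAR naive 1 and -2.60 in AICAR naive 2, against -4.34 in EOS primed and -4.07 in CA-p38 EOS primed. It was therefore higher in every naive library, by 1.46 on average (exact permutation p = 0.0667, adjusted p = 0.1). These are ratios of counts without correction for transcript length and do not compare the levels of the 2 genes.

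POU5F1 lies at chr6:31164337-31180731 on the - strand in the HLA region, where GRCh38 carries alternative sequences, and its 7 identifiers were counted apart. Summed, POU5F1 was at 1622 CPM in VPA naive, 1533 CPM in CA-p38 naive, 1534 CPM in AICAR naive 1 and 1472 CPM in AICAR naive 2, and at 1711 and 1645 CPM in EOS primed and CA-p38 EOS primed. With TMM scaling, all naive libraries lay below both primed libraries, by a small margin. Without it the order does not hold, as VPA naive had 84942 POU5F1 counts of 51748196, against 80510 of 52274570 in CA-p38 EOS primed. The means were 1540 ± 61.6 CPM (SD, n = 4) and 1678 ± 46.7 CPM (SD, n = 2). The log2 fold change was -0.12 (SE 0.08, 95% interval -0.30 to 0.05, adjusted p = 0.224 with edgeR), which did not pass the test. Over the parental library and with TMM scaling, the level was 0.948-fold in VPA naive and 0.932-fold in CA-p38 naive. It was 0.896-fold in AICAR naive 1 and 0.860-fold in AICAR naive 2.

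The POU5F1 counts were split over the identifiers in nearly the same proportions in every library. ENSG00000204531, the identifier on chromosome 6, held 25 to 26.1% of them, and the 6 identifiers on alternative sequences held the rest. Chosen after the values were seen, 3 pairs of the latter had nearly equal counts. ENSG00000206454 and ENSG00000237582 held 14.6 to 15.7% each, ENSG00000230336 and ENSG00000235068 held 13.1 to 13.7% each, and ENSG00000229094 and ENSG00000233911 held 8.37 to 8.92% each. The 2 identifiers of a pair differed by at most 2.51% in any library. In the reference, the 1409-base transcript POU5F1-201 aligned in full to 6 of 16 alternative sequences of chromosome 6, with 1 to 4 differing bases. A read of POU5F1 can therefore fit several identifiers, and the split does not measure separate transcripts.

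**Figure D3:**
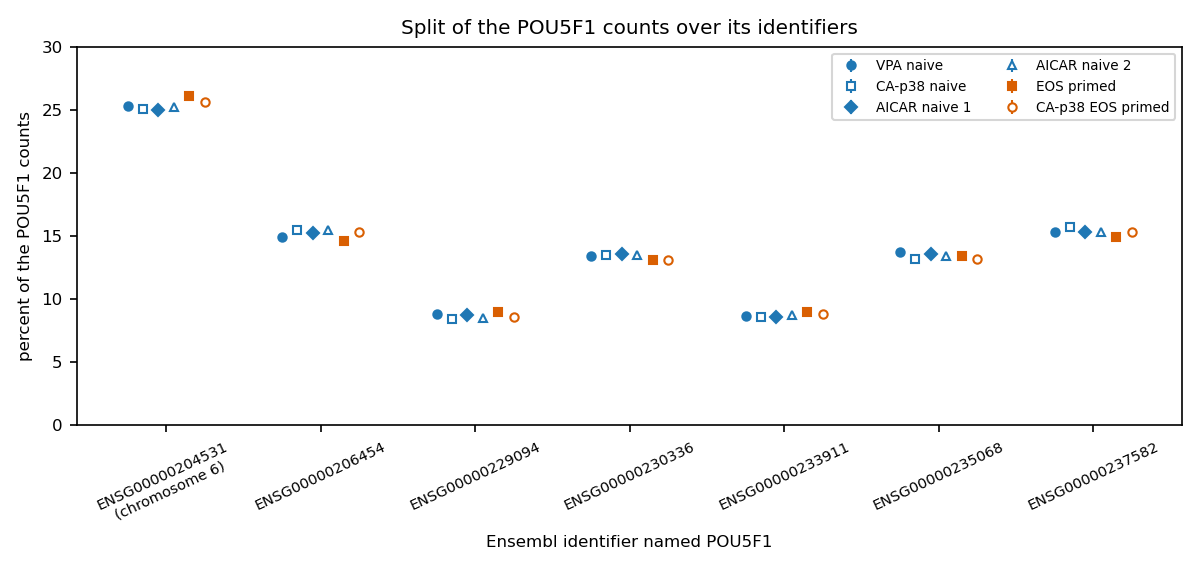
Share of the POU5F1 counts on each of its 7 Ensembl identifiers (x axis) in percent (y axis, from 0), 1 symbol per library, with Wilson 95% intervals that are smaller than most symbols. The identifier on chromosome 6 holds 25 to 26.1%, the others 8.37 to 15.7%, with little difference between naive (blue) and primed (orange) libraries.

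Tested one identifier at a time, 0 of the 7 passed. With TMM scaling, 6 of the 7 did not overlap between states, with naive lower. Over all 29925 identifiers tested, 26.4% were lower in naive libraries at an adjusted p under 0.05, and 31.7% did not overlap with naive lower. For 7 of 7 identifiers the log2 fold change was below 0, from -0.18 (ENSG00000204531, SE 0.09, adjusted p = 0.103, and ENSG00000233911, SE 0.09, adjusted p = 0.123) to -0.10 (ENSG00000230336, SE 0.09, adjusted p = 0.378), all with edgeR, although 3 of them turned to just above 0 with library totals as the scaling. ENSG00000204531 stood at 370 to 409 CPM in naive libraries and at 452 and 424 CPM in EOS primed and CA-p38 EOS primed. It passed with median-ratio scaling alone (log2 fold change -0.24, adjusted p = 0.0436 with edgeR), and its adjusted p ran from 0.0436 to 0.514 over the alternatives. The genes around POU5F1 were split as well. TCF19 was spread over 7 identifiers, with 11.2 to 14.2% on the one on the chromosome, and CCHCR1 over 6, with 23.3 to 24.8% on it.

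POU5F1B (ENSG00000212993), annotated at chr8:127322183-127420066 on the + strand, varied between libraries of the same state. It was at 8.33 CPM in VPA naive, 3.66 CPM in CA-p38 naive, 6.53 CPM in AICAR naive 1 and 3.32 CPM in AICAR naive 2, and at 6.67 and 2.78 CPM in EOS primed and CA-p38 EOS primed. The states overlapped. The log2 fold change was 0.21 (SE 0.41, 95% interval -0.68 to 1.10, adjusted p = 0.692 with edgeR). It turned to -0.08 without VPA naive and to -0.28 without CA-p38 EOS primed, and it was 0.96 without EOS primed. POU5F1B held 0.511%, 0.238%, 0.424% and 0.225% of the POU5F1 and POU5F1B counts in VPA naive, CA-p38 naive, AICAR naive 1 and AICAR naive 2, and 0.388% and 0.169% in EOS primed and CA-p38 EOS primed. The difference of 0.071 percentage points was within the spread (exact permutation p = 0.5333, adjusted p = 0.5333), and turned to -0.039 without CA-p38 EOS primed. Its transcript matched POU5F1 over 1371 bases with 28 differing bases (98.0% identity), and 5.80% of its 75-base stretches also occurred in POU5F1. How many of the counts on POU5F1B came from POU5F1 transcripts was not tested.

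Genes of the same regions did not move as one. In order along chromosome 12, GDF3, a ligand of the TGF-beta family, rose from 7.94 and 11.4 CPM in the primed libraries to 196 CPM or more in naive ones (log2 fold change 4.42, SE 0.17). DPPA3, a maternal factor that affects DNA methylation, rose from 0.667 and 0.470 CPM to at least 342 CPM (log2 fold change 9.39, SE 0.22). NANOGNB and NANOG followed, and were higher too. SLC2A14 and SLC2A3, glucose transporters that lie on either side of NANOGP1, were lower, SLC2A14 with a log2 fold change of -1.20 (SE 0.21) and SLC2A3 with one of -2.26 (SE 0.10). FOXJ2, a forkhead factor, fell by 0.42 (SE 0.16, adjusted p = 0.0393). The adjusted p of the other 4 was at most 0.00035, all with edgeR. FOXJ2 lost its call without VPA naive (-0.41, adjusted p = 0.0603), AICAR naive 1 (-0.45, 0.0543), AICAR naive 2 (-0.37, 0.0806), EOS primed (-0.37, 0.197) or CA-p38 EOS primed (-0.48, 0.0914). SLC2A14 was at 33.4 CPM in EOS primed and 17.6 CPM in CA-p38 EOS primed, and its log2 fold change was -0.68 (adjusted p = 0.0204) without EOS primed and -1.58 without CA-p38 EOS primed. SLC2A14 and SLC2A3 are close paralogs, and reads between them were not separated. Of the 8 listed neighbours of NANOG, 6 were tested, with 2 higher, 3 lower and 1 not passing. This count, those of the marker lists and those of the lists that follow stand against 26% higher and 27% lower among all tested names.

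Around POU5F1, 7 of 9 listed neighbours were tested, with 2 higher, 2 lower and 3 not passing, so that the share called was near that of all names. HLA-C and HLA-B, which present peptides on the cell surface, fell by 2.25 (SE 0.24) and 2.02 (SE 0.22) on the log2 scale, with adjusted p = 5.39e-06 and 5.9e-06 (edgeR). PSORS1C2 rose by 2.37 (SE 0.28, adjusted p = 1.1e-05 with edgeR). TCF19, which overlaps POU5F1 on the other strand, rose by 0.38 (SE 0.12, adjusted p = 0.018 with edgeR), but not without EOS primed (0.26, adjusted p = 0.194). The library kit kept the strand of the RNA, but whether the counting used it is not stated, and without it reads of the overlap cannot be assigned to one of the 2 genes. CCHCR1 had a log2 fold change of 0.12 (SE 0.17, adjusted p = 0.579). With identifiers on chromosomes alone, TCF19 (0.35, adjusted p = 0.216) and HLA-B (-0.56, adjusted p = 0.445) did not pass, and the log2 fold change of HLA-C moved the other way, to -4.00 (adjusted p = 3.38e-06).

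**Figure D4:**
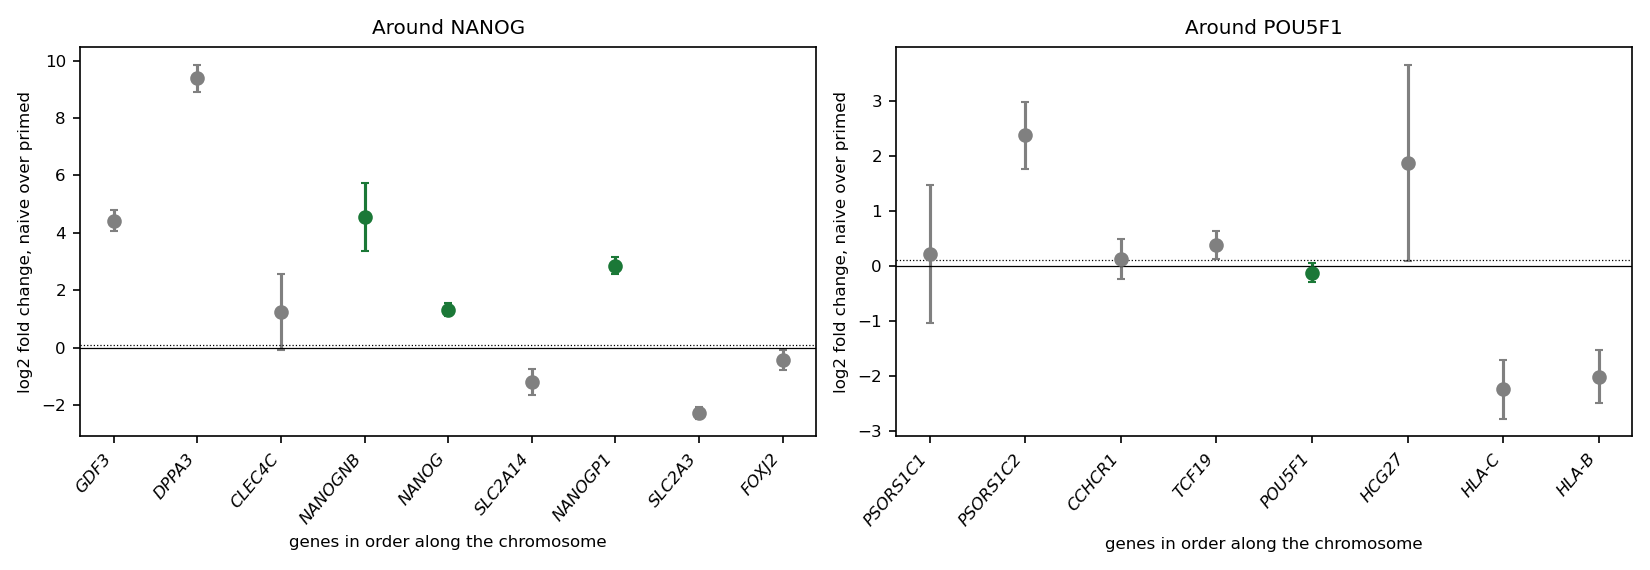
Log2 fold change of naive over primed (y axis) for tested genes around NANOG (left) and POU5F1 (right) in their order along the chromosome, with 95% intervals. Members are in green, other genes in grey, and the dotted line is the median of all names tested (0.11). NANOGP1 (2.87) lies between SLC2A14 (-1.20) and SLC2A3 (-2.26).

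The partner factors, which bind with or beside NANOG and POU5F1, moved in both directions. Of 16 listed, 15 were tested, with 9 higher, 6 lower and 0 not passing, and a median log2 fold change of 0.56. ZFP42, a zinc-finger factor, rose from 0.707 and 0.695 CPM to 229 to 301 CPM (log2 fold change 8.62, SE 0.20), and KLF4, a Krüppel-like factor, from 1.01 and 0.858 CPM by 8.26 (SE 0.18) on the log2 scale. SOX2, which binds DNA beside POU5F1, was at 123 CPM in VPA naive, 125 CPM in CA-p38 naive, 146 CPM in AICAR naive 1 and 121 CPM in AICAR naive 2, and at 234 and 237 CPM in the primed libraries. It thus fell by 0.87 (SE 0.10) on the log2 scale. The 3 genes had adjusted p = 1.17e-11, 9.23e-12 and 1.12e-05 with edgeR. ZSCAN10, a zinc-finger factor, fell by 0.37 (SE 0.10, adjusted p = 0.00659 with edgeR), but not without CA-p38 EOS primed (-0.26, adjusted p = 0.108). MYCN, a MYC family factor, rose by 0.42 (SE 0.13, adjusted p = 0.0176 with edgeR) although its libraries overlapped. Its call was lost without CA-p38 naive (0.36, adjusted p = 0.054), AICAR naive 1 (0.38, 0.0533) or EOS primed (0.25, 0.228).

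The 20 listed targets of the 2 factors were all tested, with 9 higher, 10 lower and 1 not passing, and a median log2 fold change of -0.71. Among the 5 with the highest mean level, 4 were lower in naive libraries. DNMT3B, a de novo DNA methyltransferase, fell by 1.95 (SE 0.11) on the log2 scale, from 2569 and 3226 CPM to 685 to 811 CPM. L1TD1, an RNA-binding protein, fell by 1.43 (SE 0.10), LIN28A, which blocks let-7 maturation, by 1.73 (SE 0.11), and DPPA4, a chromatin-associated protein, by 0.71 (SE 0.09). Their adjusted p was at most 2.97e-05 with edgeR. TDGF1, a co-receptor for NODAL, rose by 0.37 (SE 0.11, adjusted p = 0.0135 with edgeR), but not without EOS primed (0.26, adjusted p = 0.151).

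**Figure D5:**
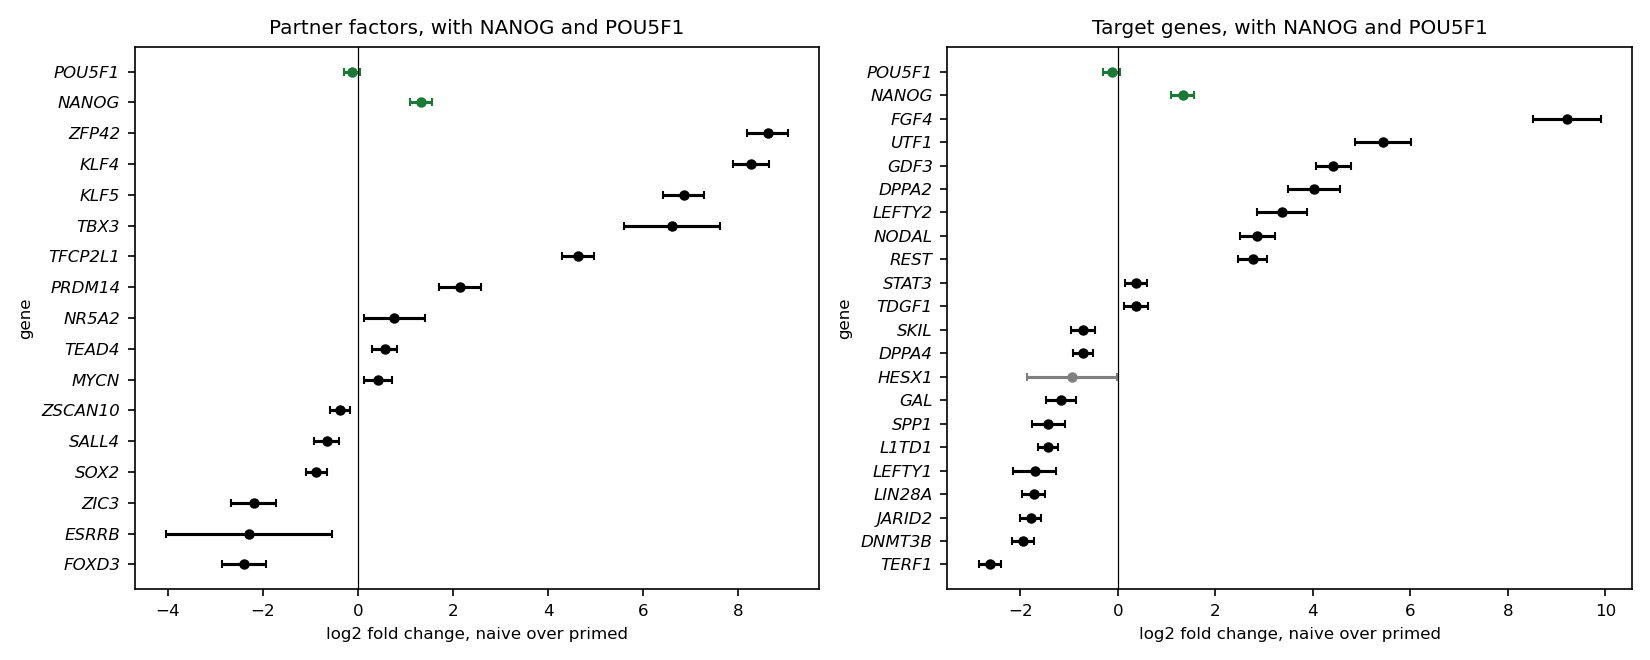
Log2 fold change of naive over primed (x axis) with 95% intervals for the tested partner factors (left) and target genes (right), with NANOG and POU5F1 in green at the top. Black points passed the test and grey ones did not. Both lists hold genes on either side of 0, from FOXD3 (-2.40) to ZFP42 (8.62) among partners and from TERF1 (-2.63) to FGF4 (9.21) among targets.

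Other POU factors, which share the POU domain with POU5F1, also went both ways. Of 14 listed, 11 were tested, with 5 higher, 4 lower and 2 not passing, and a median log2 fold change of -0.36. POU2F1, a widely expressed octamer-binding factor, fell by 1.09 (SE 0.13), and POU3F1, known from neural and Schwann cells, by 2.66 (SE 0.18) on the log2 scale, while POU6F1 rose by 1.93 (SE 0.17). Their adjusted p was at most 1.02e-05 with edgeR. POU2F2, known from B cells, fell by 1.25 (SE 0.32, adjusted p = 0.00523 with edgeR), but not without CA-p38 EOS primed (-1.03, adjusted p = 0.0676). POU5F2 rose by 1.07 (SE 0.29, adjusted p = 0.00764 with edgeR), but not without EOS primed (0.98, adjusted p = 0.0628).

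The names with a profile most like that of NANOG over the 6 libraries, by the root mean square difference of centred log2 CPM among 12602 names with a mean of at least 5 CPM, were MRPS12 (0.037), TIMM23B (0.039), DEGS1 (0.041), PLA2G15 (0.041) and CHST12 (0.045). They share its libraries and were chosen for this likeness. Their log2 fold changes, from 1.28 to 1.36, therefore follow from the choice. For POU5F1 they were PET117 (0.033), CCZ1 (0.033), GLO1 (0.033), UFC1 (0.034) and VARS1 (0.034), with log2 fold changes from -0.17 to -0.14. None of the latter 5 passed the test, like POU5F1, whose profile they were chosen to match. TIMM23B and CCZ1 have near-identical copies, so their counts are uncertain.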

How the data were processed

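Raw counts of 6 bulk RNA-seq libraries were used. The authors enriched polyadenylated RNA, made libraries with the SMART-Seq Stranded kit, trimmed reads with cutadapt 1.15 through Trim Galore 0.4.4, aligned them with Bowtie2 to the Ensembl GRCh38 release 100 cDNA and noncoding RNA sequences, kept a mapping quality of at least 1, and deposited whole-number counts per Ensembl identifier without normalization. A read that fits several copies equally well can be dropped or placed on one of them by such a rule, so levels of copies are less certain than those of single genes. Whether counting used strand and the read length are not given in the sources used here. A further 23 columns, from other studies, were left unused, and 26 spike-in rows did not enter the totals.

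Counts were summed per name, and also kept per identifier. Naive (n = 4) and primed (n = 2) libraries were compared over the whole table by the quasi-likelihood test of edgeR 4.0.16 (R 4.3.3), after TMM scaling and a filterByExpr filter that took the state as group. P-values were adjusted after Benjamini and Hochberg, at a threshold of 0.05. CPM are TMM-scaled. Ratios and shares within a library were compared with exact permutation tests over all 15 splits, and intervals of shares are Wilson intervals. Those of folds between single libraries are Clopper-Pearson intervals, which cover counting error only. Positions came from GENCODE 44 on GRCh38, a later release than the one used for counting. Transcripts were aligned with minimap2 2.31 and Biopython 1.88, and promoters came from RefSeq (GRCh38.p14). The AICAR libraries differed as much as other naive pairs (chi-square of 21.1 per name, 19.8 to 35.9 for the other pairs) and were counted as 2. Such a difference does not show that the 2 came from separate cultures. The members and lists were chosen with earlier results of these data known. All members were named with each identifier, and of each list the 5 tested genes with the highest mean CPM, as well as the 5 names most like NANOG and POU5F1. Of the marker lists, counts and summed levels are given, with levels of single genes for the fibroblast and neural lists. Alternatives were DESeq2 1.42.0 and its scaling factors, library totals, limma-voom (limma 3.58.1), 2 other filters, a block for the parental line, a sum of the AICAR libraries, each library left out, and identifiers on chromosomes alone. Summing all copies of NANOG and of POU5F1 was added after seeing the data.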

Additional observations from a re-analysis of the deposited data

Results flagged for a closer look

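Of 58 sets of 4 naive values, 2 had a library that stood apart from the other 3 by more of the whole range than Dixon's 95% limit allows, and chance alone gives about 1 in 20 sets. SOX2 was at 145.7 CPM in AICAR naive 1, above the other naive libraries and below both primed ones. The identifier ENSG00000111704 of NANOG was at 241.5 CPM in AICAR naive 2, further from the primed libraries than the other naive libraries. Per name, with the same counts and slightly different scaling factors, NANOG (242.2 CPM in AICAR naive 2) was not flagged. The 58 sets hold members both per name and per identifier, so they are not independent.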

How the results depend on the processing

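NANOG (log2 fold change 1.22 to 1.52), NANOGP1 (2.78 to 2.96) and NANOGNB (4.17 to 5.09) were higher and passed the test in every alternative that gave a value. NANOGNB had none with at least 10 counts in every library. POU5F1 (-0.17 to -0.03, adjusted p 0.103 to 0.783) passed in none. The value of 1.52 for NANOG came with all copies summed, an alternative chosen after seeing the data. With each library left out in turn, POU5F1B ran from -0.28 to 0.96 per name and from -0.30 to 0.94 as an identifier (-0.083 and -0.081 without VPA naive), its share from -0.039 to 0.181 percentage points, POU5F1P3 from -0.46 to 0.66 (0.123 without CA-p38 naive and 0.12 without AICAR naive 2), and POU5F1P4 from -0.31 to 0.56. Names called ran from 11313 to 13677 against 14058, and identifiers from 12399 to 15177 against 15585. With library totals as scaling, the median over all names moved from 0.107 to 0.205, and ENSG00000206454 (0.006), ENSG00000230336 (0.015), ENSG00000237582 (0.002) and POU5F1P3 (0.079) turned above 0. POU5F1P3 also did so with limma-voom (0.035), at least 10 counts in every library (0.013) and the AICAR libraries summed (0.042), and POU5F1P4 turned to -0.041 with the parental line as a block. FOXJ2 lost its call with library totals (-0.33), that block (-0.40) and the AICAR libraries summed (-0.40). The cause of these changes was not tested. By replicate number, no paired analysis was possible because the numbers were given in accession order. The parental line, however, ties naive to primed libraries, and as a block it called 13420 names and changed no call of a member (NANOG 1.34, POU5F1 -0.13). Depth limits NANOGNB in primed libraries, with at most 4 counts.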

Other observations

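Retrocopies of POU5F1 that lie outside the 5 members varied between libraries in a way that resembled POU5F1B. POU5F1P3 was at 6.72 CPM in VPA naive, 3.05 CPM in CA-p38 naive, 4.73 CPM in AICAR naive 1 and 3.28 CPM in AICAR naive 2, and at 6.14 and 2.78 CPM in EOS primed and CA-p38 EOS primed. POU5F1P4 was at 3.82, 2.2, 2.91 and 1.87 CPM in the same naive libraries and at 3.37 and 1.82 CPM in the primed ones. Both had their 3 highest values in VPA naive, EOS primed and AICAR naive 1, as POU5F1B did. In the order of the deposited columns, these 3 come before the other libraries of this study. What that order stands for is not stated, and its part in the pattern was not tested. NANOGP2 was at 1.26, 0.475, 1.14 and 0.704 CPM in the naive libraries and at 0.606 and 0.266 CPM in the primed ones. POU5F1P3 (log2 fold change of -0.005, adjusted p = 0.993), POU5F1P4 (0.06, adjusted p = 0.907) and NANOGP2 (1.03, adjusted p = 0.137) did not pass the test with edgeR. For NANOGP2 the log2 fold change was 1.73 without EOS primed and 0.57 without CA-p38 EOS primed. In sequence, POU5F1P3 was 98.1% and POU5F1P4 97.2% identical to POU5F1-201 over the aligned bases. POU5F1P8, also listed, was not among the names of the count table. The other remaining copies were not tested because of their low counts.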
